A study of Mus musculus with 4 samples.

Results

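The genes described here are the interferon-induced genes, interferon regulatory factors, STAT transcription factors and major histocompatibility complex (MHC) genes of mouse cerebellum, with the accessory genes of class I antigen presentation. They were chosen by their names on the array, which had to match a fixed set of patterns (Ifi, Irf, Oas, Gbp, Stat, Isg, Mx, H2 and the Tap, Tapbp and immunoproteasome genes) or be B2m, Bst2, Usp18 or Rtp4. No measured value entered that choice. The patterns took 230 of the 43379 gene spots on the array, which are 167 of 41174 probes and 109 of 28632 genes. Of these 109 genes, 75 were bright enough to be tested, out of 18025 genes tested in all.

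RNA came from whole cerebellum of mice on a mixed strain background at postnatal day 30. The Dicer mutants carried the mGfap-Cre transgene and 2 floxed Dicer alleles. Their control littermates carried the same transgene with 1 floxed and 1 wild-type Dicer allele, so Cre acts on Dicer in both groups. The transgene places Cre under the mouse Gfap promoter, which is active in astroglia, whereas the arrays measured all cells of the tissue. There were 4 littermate pairs, which the labels call biologically independent, and the mutant and the control of a pair were labelled with different dyes and hybridised to 1 two-colour array. The mutant was in Cy5 on the arrays of pairs 1 and 3 and in Cy3 on those of pairs 2 and 4. All values below are log2 ratios of mutant over control, so that a positive value means a brighter probe in the mutant, and errors are SDs over the 4 pairs. In whole tissue, more RNA per cell and more cells of a type cannot be told apart.

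Interferons are secreted proteins that bind receptors on the cell surface and activate transcription factors of the STAT and IRF families, which enter the nucleus and switch on a large set of antiviral genes. Many of these genes have a short promoter element, the interferon-stimulated response element, at which these factors and other IRF proteins bind. MHC class I genes are also raised by interferon: the H2 heavy chain pairs with beta-2-microglobulin and carries peptides, cut by the proteasome and moved by TAP, to the cell surface, where T cells read them. In healthy brain the level of class I is low, and microglia and vessels are prominent sources of it.

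The question asked of these genes was what accompanies Cxcl10, a chemokine gene that interferons induce and that was much higher in the mutants. Cxcl10 (probe A_51_P432641, chr5:92775781-92775840, build mm9 as in the array files) was 3.08, 2.61, 2.22 and 2.36 higher in the mutant than in the control of pairs 1, 2, 3 and 4. Its log2 brightness was 9.47, 9.06, 8.72 and 9.07 in the mutants, against 6.39, 6.44, 6.50 and 6.71 in the controls, so the groups did not overlap. Its probe was well above background in all 4 mutant channels and in 2 of 4 control channels, those of pairs 3 and 4, and it entered the test through the mutant channels. The control spots of pairs 1 and 2 were not well above background, so the ratios of these pairs have no order relative to the others. The mean ratio over the 4 pairs was 2.57 ± 0.38, with limma's adjusted p at 0.00529. Cxcl10 was chosen with this result known, and it is given as a description. The value depended on the processing, with 4.66 (adjusted p = 0.0430, limma) from the scanner software's own processed signals and 1.93 (adjusted p = 0.0579, limma) with outlier flags applied after the background fit.

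To show what Cxcl10 and the interferon-induced members have in common, promoters of 5 of these genes are printed here, 5′ to 3′ on the gene's strand, from RefSeq's GRCm38.p6 promoter table. Each covers the 250 bases before the start site. Capitals mark the core of the interferon-stimulated response element, searched as GAAANNGAAA on both strands, with overlapping matches merged.
Cxcl10 chr5:92348890-92349139 minus strand: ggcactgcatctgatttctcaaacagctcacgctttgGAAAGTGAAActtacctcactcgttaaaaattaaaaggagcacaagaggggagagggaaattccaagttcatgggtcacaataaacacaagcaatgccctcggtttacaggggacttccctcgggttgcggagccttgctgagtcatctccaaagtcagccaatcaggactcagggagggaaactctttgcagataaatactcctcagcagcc
Isg15 chr4:156200819-156201068 minus strand: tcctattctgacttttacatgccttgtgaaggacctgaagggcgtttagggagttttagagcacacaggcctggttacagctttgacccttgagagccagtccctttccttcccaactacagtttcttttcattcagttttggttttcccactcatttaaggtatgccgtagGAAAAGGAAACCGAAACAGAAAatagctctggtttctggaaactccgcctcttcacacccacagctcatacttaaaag
Ifit1 chr19:34640639-34640888 plus strand: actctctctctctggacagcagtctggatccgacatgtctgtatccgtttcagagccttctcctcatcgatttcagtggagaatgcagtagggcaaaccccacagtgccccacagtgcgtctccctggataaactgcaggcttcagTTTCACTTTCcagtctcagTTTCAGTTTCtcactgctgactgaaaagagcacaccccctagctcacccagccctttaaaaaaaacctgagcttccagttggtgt
Ifit3 chr19:34583279-34583528 plus strand: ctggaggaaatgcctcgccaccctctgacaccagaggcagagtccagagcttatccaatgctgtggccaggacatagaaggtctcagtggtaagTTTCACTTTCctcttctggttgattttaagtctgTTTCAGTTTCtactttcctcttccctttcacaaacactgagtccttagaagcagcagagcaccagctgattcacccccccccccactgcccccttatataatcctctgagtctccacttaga
Bst2 chr8:71537473-71537722 minus strand: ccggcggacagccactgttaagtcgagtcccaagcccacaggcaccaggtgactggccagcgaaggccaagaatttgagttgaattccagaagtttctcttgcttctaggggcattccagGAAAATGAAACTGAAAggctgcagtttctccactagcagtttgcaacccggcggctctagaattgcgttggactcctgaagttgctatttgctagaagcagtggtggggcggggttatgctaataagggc
Cxcl10 held 1 match, which began 213 bases before the start site. Isg15 held 3 overlapping matches that began 78 to 66 bases before it, Ifit1 2 at 104 and 85 bases, Ifit3 2 at 156 and 122 bases, and Bst2 2 overlapping ones at 130 and 124 bases. A match is a stretch of letters and not a measured binding site.

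A promoter entry matched 85 of the 109 member genes by symbol. In windows from 250 bases before to 50 bases after the start, 24 of these 85 genes held GAAANNGAAA, which is 28.2%, whereas 3.44% of all 32851 promoters in the table and 3.99% of its 27025 genes held it. The palindromic STAT element TTCNNNGAA stood in 18 of 85 member genes, or 21.2%, and in 8.3% of all promoters and 9.55% of the table's genes. Of the members with GAAANNGAAA, 19 were tested, and none passed the test. Their median log2 ratio was 0.03, with values between -0.24 and 0.26, and 13 of the 19 were above 0. Cxcl10, with the same element, was at 2.57.

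None of the 75 tested members was higher or lower in the mutants at an adjusted p under 0.05 in limma's test over all 18025 genes. In the same test 0.588% of all genes were called higher and 0.444% lower. At an unadjusted p under 0.05, 5 members (6.67%) were higher and 0 lower, against 4.88% and 4.51% of all genes. The median over the members was 0.03, and over all tested genes 0.00. The members lay between -0.24 for Ifit3 and 0.71 for H2-Bl. A larger share of members than of all genes had a ratio above 0, with 50 of 75 (66.7%) against 50.9%. Among these 50, Oas2 and Ifi202b entered the test through the mutant channels alone.

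The precision of the 4 pairs bounds these ratios as processed here. The 95% intervals of 74 of the 75 members excluded a 2-fold ratio in either direction. The median half-width over the 75 members was 0.20 on the log2 scale. The exception was H2-Bl, with an interval of -0.27 to 1.68. The interval of Cxcl10, with the dim control spots of pairs 1 and 2 in it, ran from 2.19 to 2.94. These intervals hold only for ratios made with the offset in the background correction, and ratios of some dim probes depended on the processing. From the scanner software's processed signals, Oas2 was at 0.42 and Cxcl10 at 4.66, against 0.16 and 2.57 here. With outlier flags applied after the background fit they were at 0.07 and 1.93. A 2-fold difference in RNA is therefore not excluded for dim members.

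**Figure D1:**
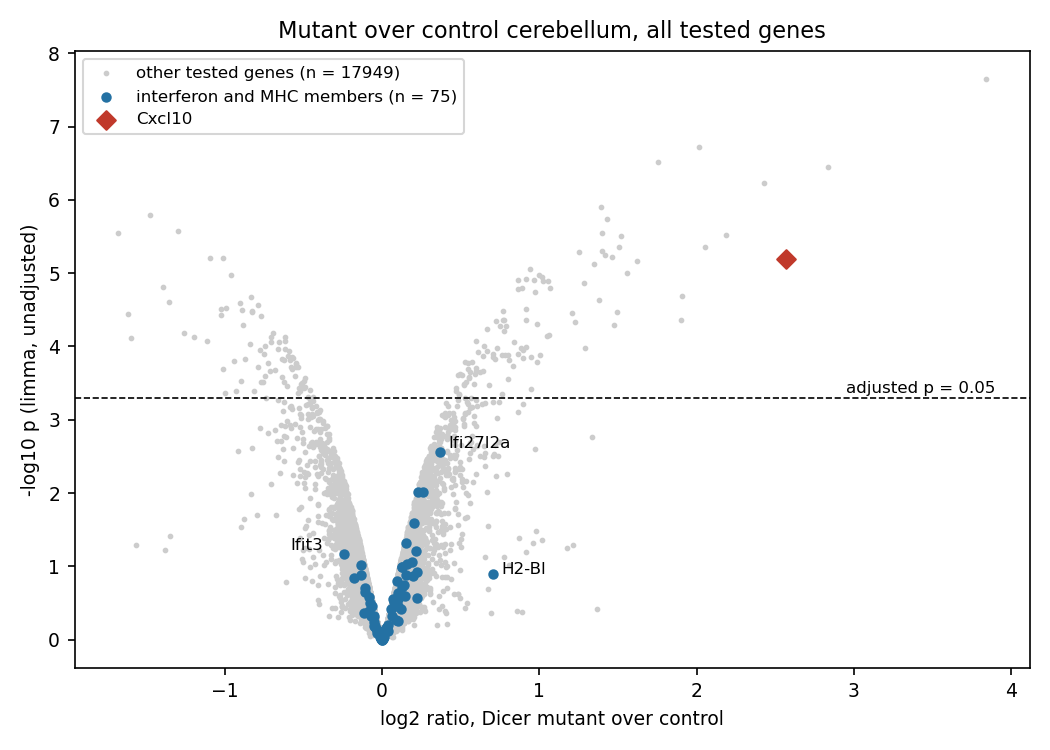
Each point is 1 of 18025 tested genes, with the log2 ratio of mutant over control on the horizontal axis and the negative log10 of limma's unadjusted p on the vertical axis. All 75 members (blue) lie below the dashed line of an adjusted p of 0.05, whereas Cxcl10 (red) lies above it at 2.57.

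Of the tested members, 8 were higher in the mutant in all 4 pairs (10.7%, against 7.75% of all tested genes), and 0 were lower in all 4, against 7.32% of all genes. The 8 were the antiviral effectors Ifi27l2a, Ifih1 and Bst2, the class I presentation genes Tapbp, Psmb9 and H2-Q8, the transcription factor gene Irf1 and the GTPase gene Gbp2. These directions were read from the pair ratios of each gene's brightest probe, and none of the 8 passed the test.

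Among the antiviral effectors, 25 of 37 genes were tested, 20 of them were above 0, and their median was 0.10. Oas2 and Ifi202b, both above 0, entered the test through the mutant channels, as each was above background in 4 mutant and 3 control channels. Ifi27l2a, named Ifi27 on the array, is strongly induced by type I interferon. It had the smallest p of all members. Its pair ratios were 0.49, 0.13, 0.45 and 0.40, with a mean of 0.37 ± 0.16 (adjusted p = 0.128, limma). Its log2 brightness was 9.20, 9.27, 9.23 and 8.66 in the mutants and 8.71, 9.14, 8.78 and 8.26 in the controls. Every mutant was brighter than its own littermate, but the groups overlapped because pair 4 was dimmer in both animals. A second probe of the gene gave 0.31, 0.22, 0.22 and 0.25, and a probe of the neighbouring Ifi27, which shares 21 bases with the first, gave 0.47, 0.24, 0.38 and 0.41. All 3 probes were above background in every channel and lie on chromosome 12, the first at chr12:104680394-104680453 and the second at chr12:104681106-104681165 (mm9). The probes of Ifi27 differed, since a brighter probe with another array name represented it in the fit. The lower value of that probe is given below, with the members that were not tested.

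Ifih1 (chr2:62435621-62435680, mm9) encodes MDA5, a cytoplasmic sensor of double-stranded RNA. Its pair ratios were 0.26, 0.39, 0.22 and 0.17, with a mean of 0.26 ± 0.10 (adjusted p = 0.245, limma). Its brightness was 8.06, 8.28, 8.14 and 8.04 in the mutants and 7.81, 7.88, 7.92 and 7.88 in the controls. Ifih1 was the only tested member whose mutant channels all lay above its control channels, 1 of 75 (1.33%), whereas 3.98% of all tested genes had channels that did not overlap in either direction. Bst2 (chr8:74058603-74058662) encodes tetherin, which holds budding virus particles at the cell surface. It was higher by 0.18, 0.21, 0.21 and 0.31, with a mean of 0.23 ± 0.06 (adjusted p = 0.245, limma), and its SD was under the median SD of all tested genes, 0.16. Its brightness overlapped between groups, at 9.97, 10.14, 10.02 and 9.80 in the mutants and 9.79, 9.93, 9.81 and 9.49 in the controls.

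Other antiviral effectors were not higher in every pair. Ifit1 (chr19:34723796-34723855, mm9) encodes a protein that binds viral RNA lacking a host cap mark. Its ratios were 0.16, 1.02, -0.34 and 0.04, and their mean of 0.22 had an SD of 0.57 (adjusted p = 0.822, limma). Its brightness was 7.54, 8.42, 7.03 and 7.42 in the mutants, against 7.39, 7.40, 7.37 and 7.38 in the controls. The controls were nearly level, and the mutants lay on both sides of them, with pair 2 high and pair 3 low.

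Isg15, a ubiquitin-like modifier, had ratios of 0.23, 0.59, -0.29 and 0.25, with a mean of 0.19 ± 0.36. Usp18, the protease that removes it and restrains the interferon receptor, had 0.10, 0.64, -0.22 and 0.07. Rtp4, an interferon-induced chaperone of cell surface receptors, had 0.15, 0.77, -0.25 and 0.21. In each of these genes the mutant of pair 2 was the brightest of all 8 animals and the mutant of pair 3 was dimmer than its littermate. Mx2, a dynamin-like GTPase that blocks viruses, followed the same order with -0.03, 0.65, -0.07 and 0.20. Ifit3 had it too, around a lower centre, with -0.40, 0.26, -0.51 and -0.30 and a mean of -0.24 ± 0.35, the lowest of all tested members (adjusted p = 0.597, limma).

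The order with pair 2 highest and pair 3 lowest was seen in 9 of 75 members (12%), against 6.67% of all tested genes. It held for 7 antiviral effectors, which were Ifit1, Ifit3, Isg15, Mx2, Oas1f, Rtp4 and Usp18, and for the GTPase genes Gbp3 and Gbp5. Across all members pair 3 was the lowest of the 4 pairs in 32 of 75 genes (42.7%), against 23.4% of all genes, and the highest in 7 (9.33%), against 24%. The median member ratio was 0.09, 0.09, -0.04 and 0.07 in pairs 1 to 4. These orders were noticed in the values, and they were not tested.

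**Figure D2:**
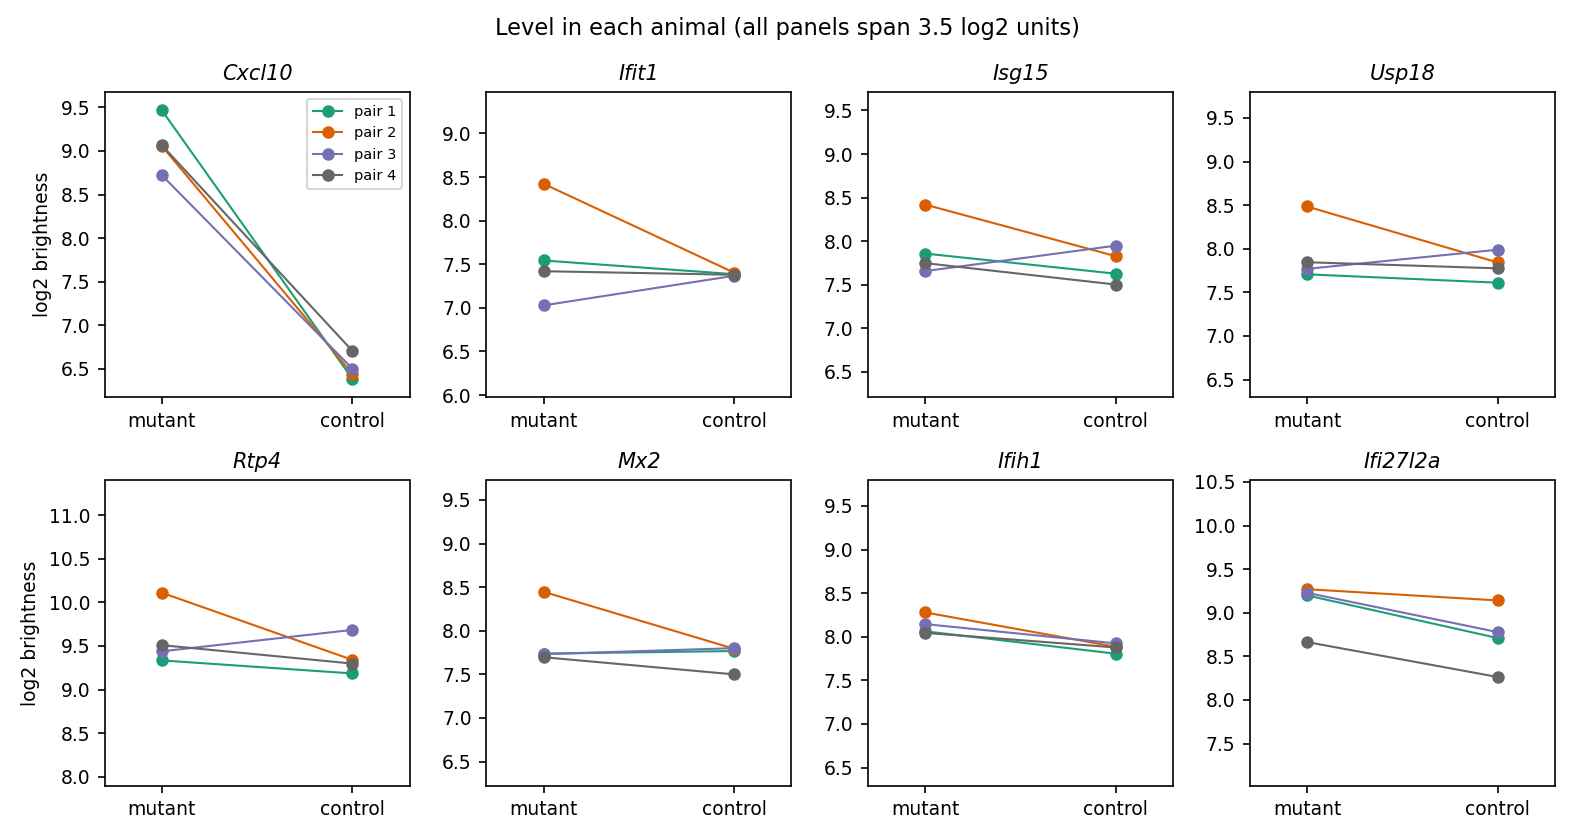
Log2 brightness in the mutant (left) and its control littermate (right) is joined by a line for each of the 4 pairs, in panels of equal span for Cxcl10 and 7 antiviral members. Cxcl10 is at 8.72 or above in every mutant and at 6.71 or below in every control, whereas in Ifit1, Isg15, Usp18 and Rtp4 the mutant of pair 2 is high and the line of pair 3 runs the other way.

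The oligoadenylate synthetase genes make the messenger that activates RNase L. Oasl2 gave 0.30, 0.44, 0.14 and -0.01 (mean 0.22, adjusted p = 0.571, limma) and Oas2 gave 0.39, 0.18, 0.14 and -0.08 (mean 0.16), with pair 4 lowest in both. The mean of Oas2 depended on the processing, at 0.42 from the scanner software's processed signals (adjusted p = 0.598, limma) and 0.07 with outlier flags applied after the background fit. Oas1a was at -0.01 ± 0.24. Of the interferon-induced transmembrane genes, which block virus entry, Ifitm3 was at 0.00 ± 0.17 and Ifitm2 at -0.08 ± 0.15. Ifit2 and Ifi44 were both at 0.03, with SDs of 0.12 and 0.14. The Ifi200 genes, which encode relatives of the DNA sensor AIM2, were named after their values were seen and lay above 0 on average. Ifi204 gave 0.13, -0.09, 0.15 and 0.31, Ifi203 gave -0.21, -0.01, 0.46 and 0.23, and Ifi202b gave 0.22, 0.20, 0.09 and -0.10. By its brightest probe each had a pair on the other side of 0, and none passed the test. A dimmer probe of Ifi204 gave 0.03, 0.19, 0.18 and 0.33, and one of Ifi203 gave -0.19, -0.30, 0.23 and 0.29. Both were above background in 4 mutant channels, and in 2 and 3 control channels. Ifi35, which binds other interferon-induced proteins, averaged -0.06 ± 0.22.

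The transducers and transcription factors stayed close to 0 as a group, with 14 of 16 tested, 10 above 0 and a median of 0.03. Stat2 and Irf9, whose proteins bind each other in the factor that drives type I interferon genes, were at -0.04 ± 0.18 and -0.14 ± 0.20, and neither passed the test. Irf7, the factor that amplifies interferon production, was at 0.09, 0.14, -0.30 and 0.20, and Irf3, which starts it, averaged 0.00 ± 0.24. Irf8, a factor of the microglial lineage, was at 0.03 ± 0.16, and Irf5, which acts in inflammatory cytokine induction, at -0.05 ± 0.20. Stat3, a factor of cytokine signals that is active in reactive astroglia, averaged 0.04 ± 0.13. These 3 genes were named after their values were seen, and their means were smaller than their spread. Stat5a, which signals for growth hormone and cytokines, had the lowest mean of this group at -0.18 ± 0.24 (adjusted p = 0.729, limma).

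Irf1, a factor induced by interferon gamma that acts on class I and Cxcl10 promoters, was higher in every pair, by 0.14, 0.14, 0.08 and 0.24. Its mean was 0.15 ± 0.06, with an unadjusted p of 0.0475 and an adjusted p of 0.523 in limma's test. Its brightness overlapped between the groups, at 9.77, 10.02, 9.58 and 9.63 in the mutants and 9.63, 9.88, 9.50 and 9.39 in the controls.

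The interferon-inducible GTPases attack the vacuoles of intracellular microbes. All 5 tested of 7 were above 0, with a median of 0.08, and in all 5 pair 3 was the lowest. Gbp2 was at 0.41, 0.04, 0.01 and 0.14, with a mean of 0.15 ± 0.18 that rested mainly on pair 1. Gbp3 averaged 0.10 ± 0.23 and Ifi47 0.08 ± 0.15, and neither passed the test.

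**Figure D3:**
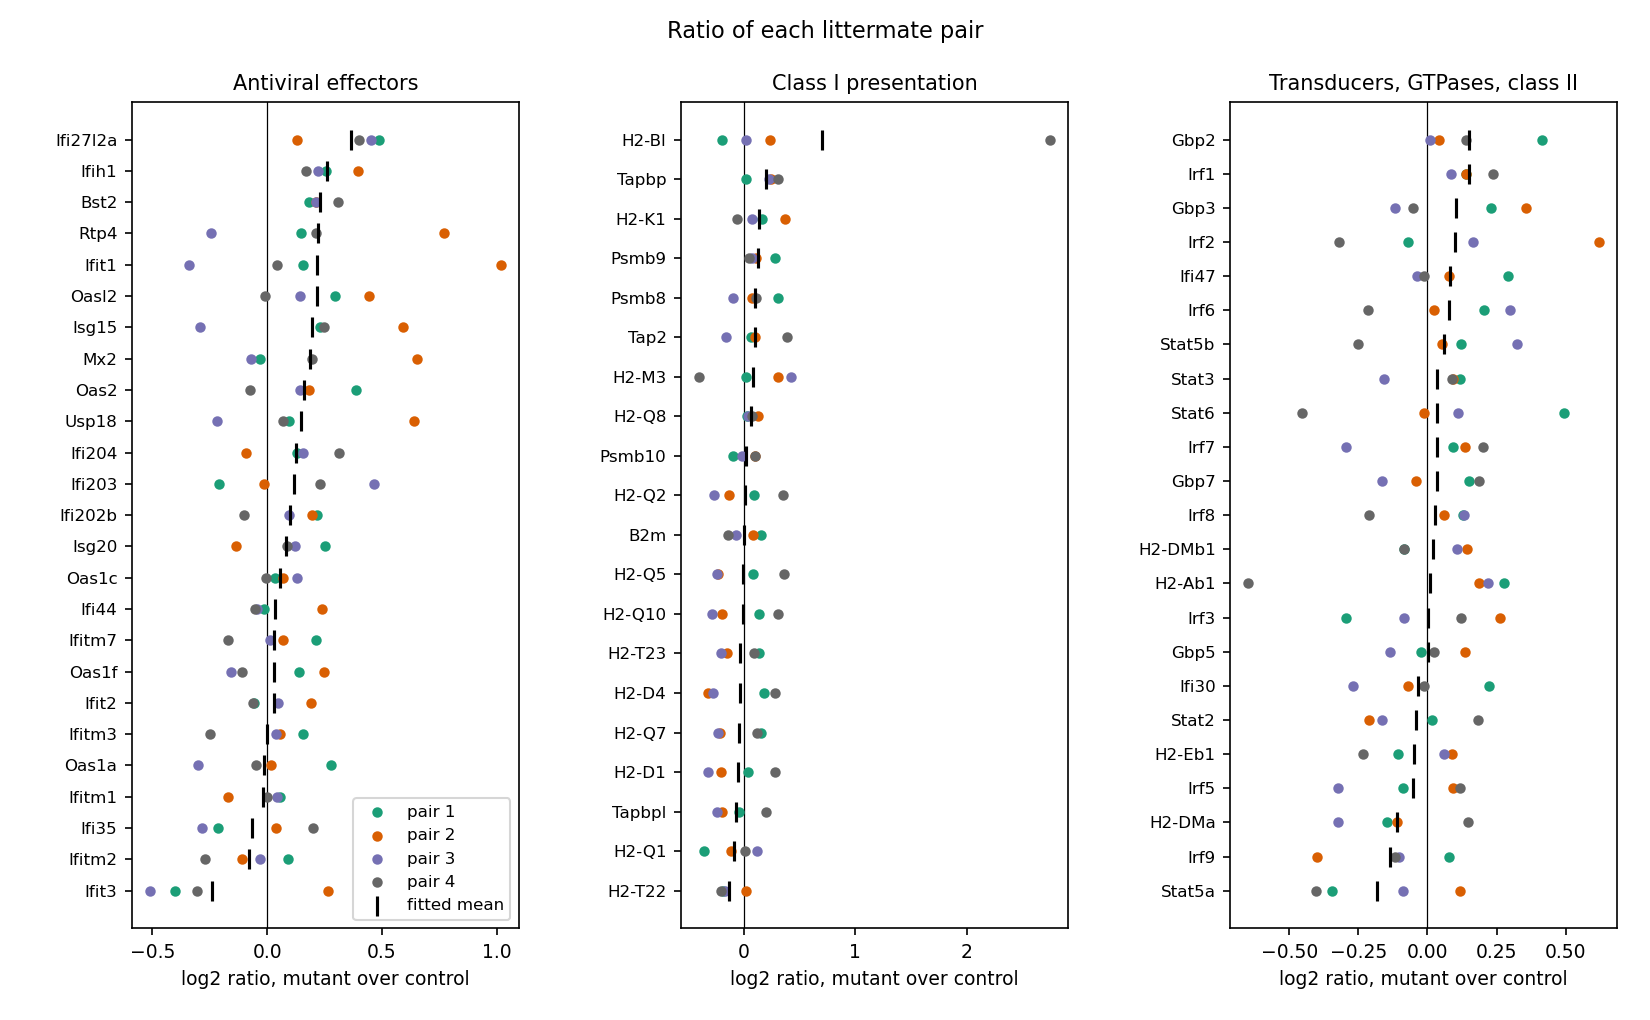
Each coloured point is the log2 ratio of mutant over control in 1 littermate pair and each black bar the fitted mean, for tested members in 3 panels by role, ordered by mean. Points of most genes fall on both sides of 0, Ifi27l2a leads the effectors at 0.37, and 1 point of H2-Bl, in pair 4, lies at 2.75.

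Class I presentation had 20 tested genes of 32, with 11 above 0 and a median of 0.01. For the 19 tested genes of the narrower class I and antigen processing list, which leaves out H2-Bl, the median was also 0.01. B2m, the light chain of every class I molecule, was at 0.16, 0.08, -0.07 and -0.14, with a mean of 0.01 ± 0.14 (adjusted p = 0.988, limma). Its brightness was 12.01, 12.07, 12.16 and 11.98 in the mutants and 11.85, 11.99, 12.23 and 12.12 in the controls, and the groups overlapped.

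Tapbp encodes tapasin, which holds empty class I molecules at the TAP transporter. By its brightest probe it was higher in every pair, by 0.02, 0.24, 0.23 and 0.31, with a mean of 0.20 ± 0.13 (adjusted p = 0.407, limma). The groups overlapped in brightness, at 11.43, 11.55, 11.09 and 11.13 in the mutants and 11.41, 11.31, 10.86 and 10.82 in the controls. A second probe (A_52_P684830), above background in every channel, gave -0.04, 0.01, 0.08 and 0.19, with a mean of 0.06, so the direction in pair 1 depended on the probe. Tap2, a subunit of the transporter, averaged 0.10 ± 0.23. The immunoproteasome subunit genes were at 0.13 ± 0.11 for Psmb9, 0.10 ± 0.17 for Psmb8 and 0.02 ± 0.09 for Psmb10, none of which passed the test.

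Several heavy chain genes shared an order over the pairs that differed from that of Ifit1 and Isg15. H2-D1, a classical class I heavy chain, had ratios of 0.04, -0.20, -0.32 and 0.28, with a mean of -0.05 ± 0.27 (adjusted p = 0.946, limma). H2-Q7 had 0.16, -0.21, -0.23 and 0.12, and H2-T23, which encodes the ligand of an inhibitory receptor on natural killer cells, had 0.13, -0.14, -0.20 and 0.09. Pairs 1 and 4 were above 0 and pairs 2 and 3 below 0 in these genes and in H2-D4, H2-Q2, H2-Q5 and H2-Q10, which were named after their values were seen. H2-M3, which presents bacterial peptides with a formylated end, had another order, at 0.02, 0.31, 0.43 and -0.40, and H2-T22, a ligand of some gamma delta T cells, averaged -0.13 ± 0.11 (adjusted p = 0.670, limma). H2-Q8, at 0.03, 0.13, 0.04 and 0.08, and H2-Q1, at -0.36, -0.11, 0.12 and 0.01, did not share the order of H2-D1 either. The sign order of H2-D1 was held by 7 of the 20 tested class I presentation genes and by 10 of all 75 members (13.3%), against 6.82% of all tested genes.

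Several of these probes have sequence in common, so their values are not independent. The longest runs shared by probes of different H2 genes are given next, in capitals because every base shown is shared. They are read from the 60-base probe sequences in the array files, for probes that lie on chromosome 17.
H2-Q10 and H2-Q5: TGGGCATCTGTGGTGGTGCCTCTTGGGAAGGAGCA
H2-Q7 and H2-T23: TTGGAGCTGTGGTGGCTTTTGTGATGAA
H2-D1 and H2-Q2: TCCACTGACTCTTACATGGTGATC
H2-K1 and H2-Q10: CAAGTGGGAGCAGGCTGGTG
These runs are 35, 28, 24 and 20 bases long. Hybridisation of one heavy chain transcript to the probe of another could not be separated from its own signal, and the values of single H2 genes are uncertain for that reason. Probes of H2-Q10 differed in detection. A_51_P230267 and A_51_P230269 were above background in no channel, and A_52_P112219 in 1 mutant and 1 control channel. A_52_P428354, which shares the 20 bases with H2-K1, was above background in every channel and had the order of H2-D1.

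H2-K1, the other classical heavy chain, was measured by 4 probes above background in every channel, and they disagreed. The brightest (A_51_P198434, chr17:34133055-34133114, mm9) gave 0.16, 0.37, 0.07 and -0.06, with a mean of 0.14 ± 0.18, and A_51_P190499, which shares 25 bases with it, gave 0.22, 0.33, 0.07 and -0.07. The remaining ones, A_52_P474242 (chr17:34136478-34136724) and A_52_P50496 (chr17:34136288-34136347), gave 0.09, -0.17, -0.32 and 0.21 and 0.24, -0.17, -0.22 and 0.32. In pairs 2, 3 and 4 the sign of H2-K1 therefore depended on the probe, and the second set had the order of H2-D1.

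H2-Bl, a non-classical class I gene (probe A_51_P247114, chr17:36217089-36217148, mm9), had the widest spread of all members. Its log2 brightness was 8.56, 12.02, 11.92 and 11.64 in the mutants and 8.75, 11.78, 11.90 and 8.90 in the controls. The 8 animals thus fell at 2 levels, with both animals of pair 1 and the control of pair 4 at the low one and the remaining 5 at the high one. Ratios were -0.19, 0.24, 0.02 and 2.75, and the mean of 0.71 ± 1.37 (adjusted p = 0.711, limma) came from pair 4 alone. Its other 2 probes also stood apart in pair 4, at 1.41 and 2.09, but the one at 2.09 shares 30 bases with the first probe. H2-Bl was called only in the fit that left out pair 2, at 1.33 (adjusted p = 0.00234, limma), where pair 4 was the sole array with the mutant in Cy3.

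**Figure D4:**
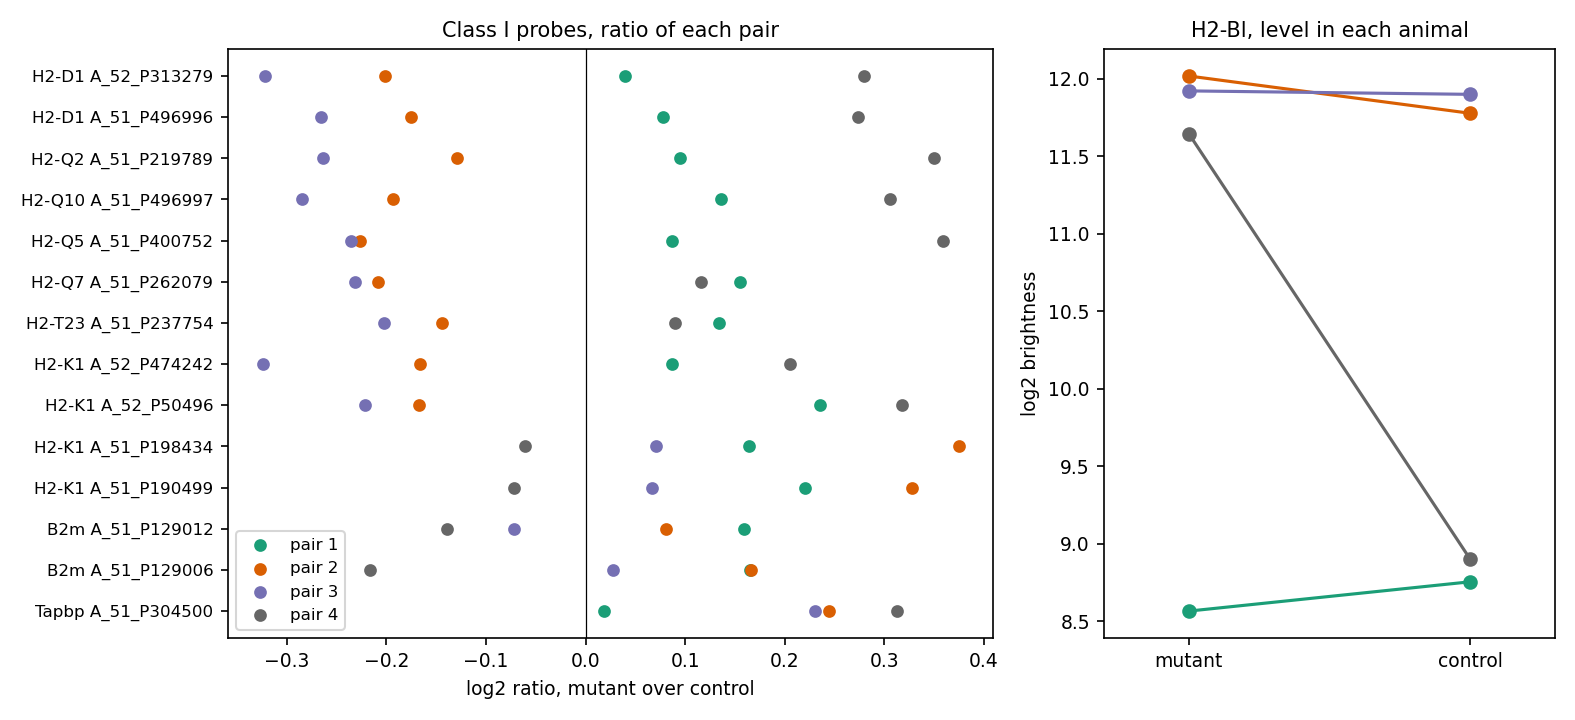
The left panel gives the log2 ratio of mutant over control in each pair for 14 class I probes, and the right panel the log2 brightness of H2-Bl in the mutant and control of each pair. The H2-D1, H2-Q, H2-T23 and 2 of the H2-K1 probes put pairs 2 and 3 below 0, the other 2 H2-K1 probes put pair 4 there, and the H2-Bl line of pair 4 runs between 11.64 in the mutant and 8.90 in the control.

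Class II molecules present peptides to helper T cells and mark microglia and infiltrating cells. In class II presentation 5 of 11 genes were tested, 2 were above 0 and the median was -0.03. H2-Ab1 had ratios of 0.28, 0.19, 0.22 and -0.65, with a mean of 0.01 ± 0.44. Its brightness was 8.25, 8.77, 7.92 and 7.78 in the mutants and 7.97, 8.58, 7.70 and 8.43 in the controls, so pair 4 ran against the others. H2-Eb1 averaged -0.05 ± 0.15 and H2-DMa, which helps to load peptides, -0.11 ± 0.19. The name patterns also took 6 tested genes of other function, such as the exonuclease gene Aen (0.13 ± 0.11) and the prefoldin gene Pfdn6 (-0.07 ± 0.23), and their median was -0.04.

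Of the members that were not tested, 34 in all, most were dim. On no array was Mx1, Oas3, Stat4 or Irf4 well above background in either channel, and the same held for most class I genes of the M region. Tap1, the transporter's other subunit, was above background in 3 mutant and 3 control channels, and its ratios were 0.11, 0.04, -0.03 and 0.35. H2-Aa was above background in 1 mutant and 3 control channels by its brighter probe. Ifi27 was above background throughout but was represented by a brighter probe with another array name, at 0.05. By array, between 109 and 120 of the 167 member probes were above background in the mutant channels and between 104 and 119 in the control channels. Probes of the members were above background in both channels of all 4 arrays in 101 cases and in no channel in 38.

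Beyond the members, 87 further genes of the pathway were looked at, from ligands to negative regulators and NF-kB targets. On the array 81 of them were present, 66 were tested, 1 was called higher (1.52%, against 0.588% of all tested genes) and 0 lower, and the median was 0.04. The called gene was Vcam1, an adhesion molecule for leukocytes, at 0.81, 0.96, 0.71 and 1.08, with a mean of 0.89 ± 0.16 (adjusted p = 0.00757, limma). Without pair 1 its adjusted p was 0.0529. Vcam1 was on the list of NF-kB targets, where 7 of 8 tested genes were above 0 and the median was 0.18. The medians of the other lists with more than 1 tested gene lay between -0.03 for sensors and adaptors and 0.08 for negative regulators. In all 4 pairs 15 of the 66 were higher (22.7%, against 7.75% of all tested genes) and 6 were lower (9.09%, against 7.32%). The lists were chosen with earlier results of these data known, and that share is a description.

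Of the ligand genes, Ifnb1, Ifng, Ifna4, Ifnk and Ifne were not well above background on any array in either channel. Ifna2 was above it in 2 mutant and 2 control channels. Ifnz was above it in every channel, at -0.05 ± 0.21 (adjusted p = 0.930, limma). The receptor genes Ifnar1 (-0.05 ± 0.17), Ifnar2 (-0.02 ± 0.11), Ifngr1 (0.05 ± 0.32) and Ifngr2 (0.07 ± 0.09) and the kinase genes Jak1 (-0.01 ± 0.06) and Jak2 (0.08 ± 0.08) did not pass the test. The related chemokine genes Cxcl9 and Cxcl11 were above background on no array, and Cxcr3, the gene of the receptor that all of them bind, in 1 mutant channel and 0 control channels. Some further genes were named after their values were seen, and of these Ccl5 alone came near the threshold. Ccl5, a chemokine gene of T cells and glia, was on the list of NF-kB targets. Its ratios were 0.88, 1.40, 0.55 and 0.75, with an adjusted p of 0.0547 in limma's test. Erap1, which trims class I peptides, was at 0.34, 0.24, 0.28 and 0.38 (adjusted p = 0.138, limma). Of the other interferon-induced genes, Rsad2, which encodes the antiviral enzyme viperin, was at 0.56, 0.60, 0.05 and 0.30 (adjusted p = 0.316, limma). Trim25, a ubiquitin ligase of the RNA sensor pathway, was at 0.44, 0.26, 0.35 and 0.20 (adjusted p = 0.124, limma), and Lgals3bp was at 0.23, 0.17, 0.35 and 0.38 (adjusted p = 0.210, limma). These 3 were higher in every pair, and none passed the test. Lower in every pair were Tlr3 (-0.13), Adar (-0.11), Psme1 (-0.12), Rfxap (-0.13), Rfxank (-0.15) and Socs1, and none of them passed the test. The feedback inhibitor genes of cytokine signalling lay on opposite sides of 0, with Socs3 at 0.40 ± 0.24 and Socs1 at -0.39 ± 0.17, and neither passed the test.

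Marker genes of the tissue and of immune cells were read on the same arrays. All 7 cerebellar neuron markers were above background. Of 15 tested microglia markers 0 were called, with a median of 0.06 and a summed brightness of 17287 to 23117 in the mutants and 17114 to 19373 in the controls. Of 10 tested endothelium markers 0 were called and 0 were above 0, with a median of -0.08. Their summed brightness was 14731 to 18714 in the mutants and 14902 to 19624 in the controls. The T cell genes Cd3g, Cd8a, Cd8b1 and Cd28 and the killer cell genes Ncr1, Gzma, Gzmb and Prf1 were above background on no array. The T cell gene Cd3e (-0.01 ± 0.09) and the killer cell gene Klrb1c (-0.06 ± 0.56) were above it in every channel. The Klrb1c probe had a log2 brightness of 13.75 to 14.65 in the mutants and 14.06 to 14.60 in the controls. That level stands apart from the dim killer cell genes, and whether it reflects killer cells was not tested. Cd3d, Cd4, Lck and Cd2 were above background in some channels, and Nkg7 in 3 mutant channels and 0 control channels. In pair 1, where Gbp2 had its highest ratio, the neutrophil genes S100a8, S100a9 and Mpo stood at 2.70, 2.80 and 1.55. In pairs 2 to 4 S100a8 was at -0.32, -0.14 and -0.64, S100a9 at -0.36, -0.27 and -0.55, and Mpo at 0.20, 0.08 and -0.18. The summed neutrophil markers spanned 1480 to 18038 in the mutants and 1839 to 2854 in the controls. Astroglia markers differed as well, with 4 of 7 called, 2 higher and 2 lower. Their median was -0.51, and 3 of 7 were above 0. Gfap (1.47 ± 0.35) and Aldh1l1 were called higher, and Aqp4 (-0.54 ± 0.26) and Slc1a2 (-0.57 ± 0.11) lower. Of all tested genes 0.588% were called higher and 0.444% lower. Of 6 tested meningeal fibroblast markers 0 were called, with a median of 0.38 and a summed brightness of 10203 to 19237 in the mutants and 8801 to 11642 in the controls. The matrix genes Dcn (0.52 ± 0.30), Lum (0.56 ± 0.36) and Col1a1 (0.65 ± 0.94) were higher in every pair, with Col1a1 at 2.06 in pair 1. The remaining markers of this list were not. Col1a2 was at 0.96, -0.49, -0.40 and -0.21, with a mean of -0.03 ± 0.67. Col3a1 (0.24 ± 0.36) was at -0.19 in pair 4, and Pdgfra (0.11 ± 0.11) at -0.02 in pair 3. The part of these marker lists in the values of Cxcl10 and of the members was not tested. Dicer1 itself, in a probe whose place relative to the floxed part is not given in the sources used here, had ratios of 0.26, -0.27, 0.07 and 0.10 and averaged 0.04 ± 0.22.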

How the data were processed

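Linear intensities of each spot and its local background in both dyes, with quality flags, were deposited as read by Agilent Feature Extraction 10.5.1.1, per the file headers. Processed intensities and a log10 ratio of Cy5 over Cy3, also deposited, were made by the same software, and the deposited value table held that log10 ratio with its sign turned for pairs 2 and 4 (largest difference 4.84e-06). Per the labels, 500 ng of total RNA went into each labelling. All arrays shared 1 slide and 1 scan, so neither could be a batch.

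R 4.3.3 and its package limma 3.58.1 were used to recompute the ratios: normexp with an offset of 50 on spots without an outlier flag (143 to 248 spots per array had one), loess within arrays, and averaging of spots of a probe. Genes were named by accession through RefSeq, or by the array name. The brightest probe stood for a gene, and it had to be well above background in the mutant channel or in the control channel of all 4 arrays and to be measured in 3 arrays or more that included both dye orders. The fit on log2 ratios had a dye and a genotype term, 2 residual and 3.37 prior degrees of freedom, and Benjamini-Hochberg adjustment over 18025 genes, with calls at 0.05. Levels per animal are these ratios around brightness quantile-normalized between arrays. They are comparable between animals for 1 probe and not between probes. Arrays give no read depth, and their number limits the precision.

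The labels pair the channels as littermates. Across 17997 probes, deviations from the dye and genotype means correlated at 0.39 to 0.70 between channels of 1 array and at no more than 0.32 between mutant and control channels of different arrays. Shared spot effects enter these values, so they do not measure litters alone.

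Named genes were the 12 members with the smallest p in each direction, a set of members of known role, Cxcl10 and called genes of the other lists. Further genes are marked as named after their values were seen. The members, lists, tests and alternatives were chosen with earlier results of these data known. The alternatives were other background corrections and normalizations, the value table, the mean over probes, other filters, fits without the dye term, with an intensity trend or without the pairing, and leaving out each pair. Some genes of the lists are not reported here.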

Additional observations from a re-analysis of the deposited data

Results flagged for a closer look

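Among 55 named genes, 5 had 1 pair that stood far from the other 3 by Dixon's ratio of gap to range, which chance gives in about 5% of genes. H2-Bl had a log2 ratio of mutant over control of 2.75 in pair 4. H2-Ab1 had -0.65 in pair 4, where the other pairs were above 0. Ifi44, an interferon-induced gene, had 0.24 in pair 2. H2-T22 had 0.024 in pair 2 and was below 0 in the other pairs. The astroglia marker gene Slc1a2, a glutamate transporter, had -0.41 in pair 4, nearer to 0 than in the other pairs.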

How the results depend on the processing

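Under 15 alternative settings, no member was called except H2-Bl without replicate 2, so the count of called members ranged from 0 to 1 when single replicates were left out. In the fit with no replicate block, which ignores the pairing on an array, 0 members were called, the smallest adjusted p of a member was 0.411 for Ifih1, and Cxcl10 stayed at 2.57 (adjusted p = 0.000142). The median of all members lay between 0.02 and 0.08 in these settings, and that of the class I list between -0.08 and 0.07. The number of members with the same sign in all pairs was 5 higher and 1 lower with median centring in place of loess, and 1 lower with the mean over probes and with no filter on dim probes. With single replicates left out, when only 3 pairs had to share a sign, it was 9 to 20 higher and 0 to 4 lower. It was 19 higher without replicate 3 and 20 higher without replicate 4. The lower count was 3 without replicate 1, 4 without replicate 2 and 4 without replicate 4. Cxcl10 was at 1.93 and no longer called with the outlier flags applied after normexp (adjusted p = 0.0579), at 4.66 both with the scanner software's processed signals and with the value table, and at 2.35 to 2.78 with single replicates left out. It had no value under the filter that asked for both channels of all 4 arrays. Of 809 values of single genes under the alternatives, 17 lost their call, among them Vcam1 without replicate 1 (adjusted p = 0.0529), 1 gained one, which was H2-Bl, and 42 changed sign without a call. The size of Oas2 moved to 0.42 with the processed signals and with the value table. The cause of these changes was not tested. Dim probes limit the comparison, with 38 of 167 member probes above background in no channel.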
